A study of Mus musculus with 2 samples.

Results

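The cells described here are sorted mouse brain cells, most of them microglia, with UMIs of Lpl, Lgals3, Itgax or Cst7. They were chosen by their own measured values: a singlet was taken when its raw UMI counts of Lpl, Lgals3, Itgax and Cst7 summed to at least 4. The UMI count of a gene in a droplet is how many different mRNA molecules of it were read there. This rule took 78 of 7903 singlets (0.987%), which are called the selected cells below, and the other 7825 singlets are their comparison. A singlet is a barcode with 1 hashtag, an antibody-bound oligonucleotide that marks the sample a cell came from.

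All cells came from mice heterozygous for Cx3cr1CreERT2(Litt), in which the Cx3cr1 promoter of myeloid cells drives a recombinase that tamoxifen activates. The mice were 12 weeks old. The TAM hashtags stand for mice given tamoxifen for 4 weeks and the oil hashtags for mice given oil, and both carry the same allele. Brain cells had been sorted as CD45+ and CD11b+ without Ly6G or CD206, and TAM1 to TAM5 and Oil1 to Oil5 were captured in 1 droplet pool. Mice without the recombinase are not among these samples, so effects of tamoxifen itself and of the activated recombinase cannot be told apart. The sources used here do not say whether a hashtag is 1 mouse, so p-values measure the spread between hashtags.

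Microglia are the resident macrophages of the brain. In a resting state they express homeostatic genes such as P2ry12, a receptor that senses purine nucleotides released by injured cells, and Tmem119, a membrane protein by which microglia are identified. A state with low homeostatic genes and high Lpl, Lgals3, Itgax, Cst7 and Apoe is known from plaques, demyelination and ageing, where it is called disease-associated. A related state with Spp1, Fam20c and Gas2l3 occurs near growing white matter of the young brain. Lpl encodes lipoprotein lipase, which releases fatty acids from lipoproteins. Lgals3 encodes galectin 3, a lectin that binds damaged membranes. Itgax encodes the integrin CD11c, and Cst7 encodes cystatin F, an inhibitor of lysosomal cathepsins.

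The rule genes were concentrated in few cells. The summed count was 0 in 7276 singlets (92.1%), 1 in 417 and 2 in 92. Just outside the threshold lay 40 singlets with a sum of 3, and just inside it 26 with a sum of 4 and 7 with a sum of 5. The median sum among the selected cells was 7, 26 of them had 10 or more, and the highest had 85. With 0.987% of the singlets, the selected cells held 58.6% of all Lpl UMIs, 76.2% of those of Lgals3, 41.3% of those of Itgax and 28.7% of those of Cst7. These shares follow from the choice and are given as a description.

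The selected cells were not one uniform profile of the 4 genes. Lpl was the gene with most UMIs in 33 cells, Lgals3 in 28, Cst7 in 7 and Itgax in 3, and 7 cells had a tie. Of the 78 cells, 18 had UMIs of 1 rule gene only, 30 of 2, 23 of 3 and 7 of all 4. Lpl and Lgals3 were found together in 29 cells, Lpl and Cst7 in 27, and Lgals3 and Cst7 in 16. The top cell held 83 Lpl UMIs, another held 38 Lgals3 UMIs and another 19 Cst7 UMIs, while no cell had more than 4 UMIs of Itgax.

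Microglial markers bear out the name microglia in 67 of the 78 cells. They do not speak to the other parts of the label, and Lpl and Lgals3 were together in only 29 of the 78. The 67 cells had UMIs of at least 8 of 14 microglial markers, with a median of 13. All 33 cells led by Lpl and all 7 led by Cst7 were among them. The 11 remaining cells had 2 to 6 of the 14 markers. They held 0 UMIs of Tmem119, Trem2, Olfml3, Lpl and Cst7 in a total of 58075 UMIs, where a count of 0 allows up to 51.7 CPM (UMIs of the gene scaled to a fixed total of all UMIs), and 9 of the 11 were led by Lgals3. The summed level of the 14 microglial markers was 1739 CPM in the 11 cells, 19636 CPM in the 67 cells and 28891 CPM in the other singlets. A list of 15 markers of dendritic cells and monocytes came to 28601 CPM over the 11 cells pooled, against 345 CPM in the 67 cells and 159 CPM in the other singlets. In the 11 cells this list included 22 UMIs of Cd209a, 58 of Napsa, 54 of S100a4, 42 of Plac8 and 646 of Cd74. Ly6c2, Ccr7 and Xcr1 were at 0 in them, and 10 of the 15 markers were at 0 in the 67 cells. Of the 1661 UMIs of the list in the 11 cells, 3 cells held 597, 517 and 390, another held 65, and the rest had 0 to 26 each. By their microglial markers all 11 go against the label. They get no cell type name here, and the gene lists below are also counted for the 67 cells alone. They came from 7 hashtags: 3 from TAM4, 2 each from TAM1 and Oil1, and 1 each from TAM2, TAM3, TAM5 and Oil2.

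**Figure D1:**
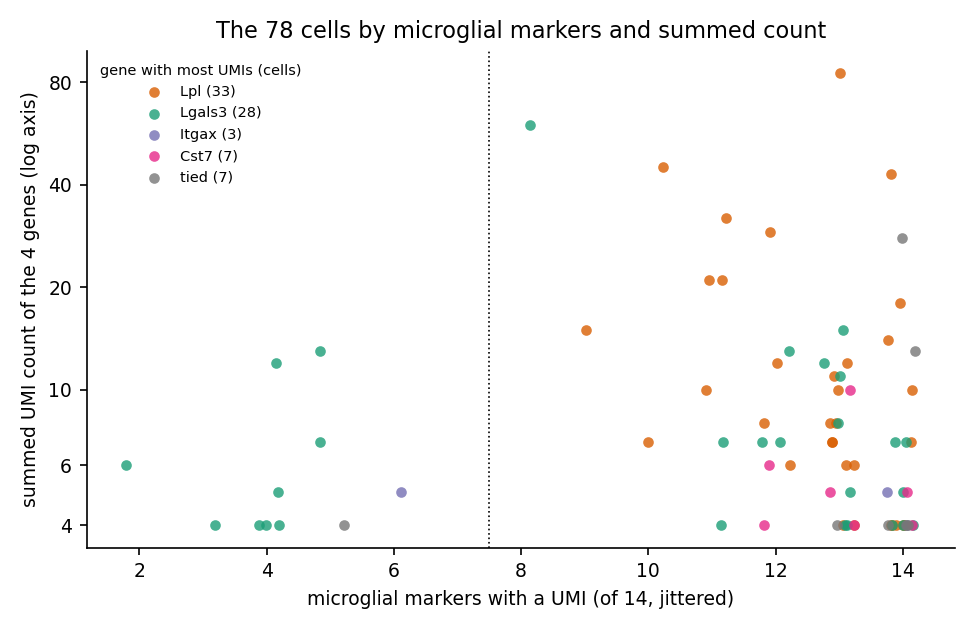
Each point is 1 of the 78 selected cells, with the number of 14 microglial markers that had a UMI on the horizontal axis (jittered sideways) and the summed UMI count of Lpl, Lgals3, Itgax and Cst7 on the vertical log axis, coloured by the gene with most UMIs. The 11 cells left of the dotted line have 2 to 6 markers and none is led by Lpl, while the highest sum, 85, belongs to a cell led by Lpl with 13 markers.

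Summed over each list, markers of other cell types were at most slightly higher in the 67 cells than in other singlets, apart from those above. Lymphocyte markers were at 0 for all 7 genes. Those of brain border macrophages came to 1 UMI over 8 genes (2.24 CPM), against 525 UMIs (13.4 CPM) in the other singlets. Of 6 neutrophil markers 5 were at 0, and Csf3r was not. CPM sums were 78.5 against 84.5 for 6 oligodendrocyte markers, 271 against 293 for 6 astrocyte markers and 44.9 against 43.3 for 6 vascular markers, in the 67 cells and then in the other singlets. Of the vascular markers, Flt1 was higher, at 33.6 CPM (15 UMIs in 6 cells) against 2.04 CPM. Pecam1 was lower, at 8.97 against 33.7 CPM, and so was Kdr, at 2.24 against 7.57 CPM. Neuron markers came to 1 UMI in the 67 cells, 2.24 against 1.69 CPM. All of these barcodes come from 1 pool of 9975 unique barcodes. About 197 doublets of 1 hashtag are expected among the singlets (2.44%), from the rate of mixed hashtags, and none could be removed.

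The share of selected cells among singlets was 1.73% in TAM1 (15 of 869), 1.13% in TAM2 (7 of 619), 0.749% in TAM3 (7 of 935), 1.61% in TAM4 (13 of 809) and 0.899% in TAM5 (7 of 779). It was 1.13% in Oil1 (8 of 706), 0.776% in Oil2 (5 of 644), 0.330% in Oil3 (3 of 910), 0.504% in Oil4 (4 of 794) and 1.07% in Oil5 (9 of 838). TAM1 and TAM4 lay above all oil hashtags and Oil3 and Oil4 below all TAM hashtags, and the remaining 6 overlapped. The mean share was 1.22% ± 0.430 in TAM hashtags and 0.763% ± 0.350 in oil hashtags (SD, n = 5 each), a difference of 0.459 percentage points. An exact two-sided permutation test gave p = 0.111, where the smallest possible p is 0.00794. The difference did not pass the threshold, and with 3 to 15 cells a hashtag the exact 95% binomial intervals are wide: 0.969% to 2.83% for TAM1 and 0.0680% to 0.960% for Oil3. Higher Lpl under TAM was known from earlier results of these data, so the share is no independent question.

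**Figure D2:**
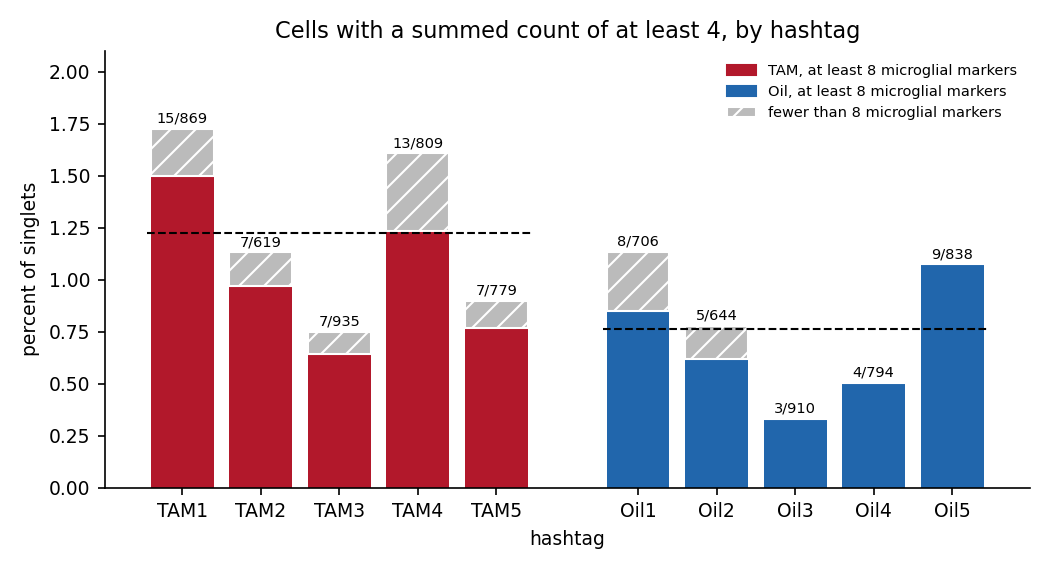
Bars give the percent of singlets that were selected in each hashtag, TAM left and oil right, with the number of selected cells over singlets above each bar, hatched for cells with fewer than 8 microglial markers, and dashed lines at the means of 1.22% and 0.763%. TAM1 and TAM4 are the tallest bars and Oil3 the shortest, and the TAM and oil ranges overlap.

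The same comparison among the 67 cells, over singlets with at least 8 microglial markers, gave 1.05% ± 0.358 in TAM hashtags and 0.690% ± 0.299 in oil hashtags (SD, n = 5 each; exact permutation p = 0.127). By Xist and Y-linked counts, TAM1, TAM2, Oil1 and Oil2 were male and the rest female. TAM hashtags were higher by 0.474 percentage points among males (exact permutation p = 0.667, smallest possible 0.333) and by 0.449 among females (exact permutation p = 0.3, smallest possible 0.1). The summed level of immediate early genes over all singlets ran with treatment, at 1502 to 2714 CPM in TAM hashtags and 2675 to 7729 CPM in oil hashtags. It also ran with the hashtag number, falling at each step from TAM1 to TAM5 and from Oil1 to Oil5. Its part in the share was not tested.

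The selected cells were deeper than other singlets, with a median of 6130.5 UMIs and 2706.5 genes against 4908 UMIs and 2418 genes. Per-hashtag medians averaged 1288 UMIs more in selected cells, and were higher in 8 of 8 hashtags. A cell with more UMIs reaches a sum of 4 sooner, so this difference is partly set by the rule. CPM takes out the total but not its effect on which cells were chosen. Among cells with totals between the quartiles of the selected cells, which left 3 hashtags, 332 of 8363 genes tested were called. Of these 91 were higher and 241 lower. Over all depths and 8 hashtags 1677 of 9588 were called. With fewer cells and hashtags fewer genes can be called, so these counts do not measure depth alone.

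Genes outside the rule were compared between selected cells and other singlets on counts summed per hashtag, in the 8 hashtags with at least 5 selected cells (all but Oil3 and Oil4). Changed genes are those with an adjusted p under 0.05 in edgeR's quasi-likelihood test with the hashtag as a block, over 9588 genes tested. By this test 548 genes (5.72%) were higher and 1129 (11.8%) lower in selected cells. The balance of the 2 directions depends on the scaling: without TMM, the composition scaling of edgeR, 786 were higher and 725 lower. The median log2 fold over all tested genes was -0.20 with TMM and -0.02 without it, and the fold changes below are to be read against that. With the 67 cells alone, 377 of 9555 genes (3.95%) were higher and 992 (10.4%) lower. The spread was estimated as equal across genes, which makes p-values very small, so the highest adjusted p over the other settings tried is given beside several of them.

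Lpl itself could be tested once it was taken out of the rule. Cells with at least 3 UMIs of Lgals3, Itgax and Cst7 together numbered 75, of which 59 were also selected cells. Lpl reached 450 CPM in TAM1, 1350 in TAM2, 848 in TAM3, 218 in TAM4, 419 in Oil1, 137 in Oil2, 98.1 in Oil4 and 300 CPM in Oil5 in these cells, against 7.38 to 33.9 CPM in the other singlets of the same hashtags. Oil3 and TAM5 had fewer than 5 such cells and were left out. The log2 fold was 4.85 ± 0.24 (SE; edgeR adjusted p = 1.4e-86), with Lpl higher in 8 of 8 hashtags. No other setting is given for this test. The levels rest on few cells, as 1 cell held 29 of 35 Lpl UMIs in TAM2 and another 36 of 65 in TAM3. Oil2 and Oil4 had only 5 and 4 Lpl UMIs in these cells. A UMI of Lpl was found in 32 of the 75 cells (42.7%) and in 273 of the 7828 others (3.49%). The remaining cells chosen on the other genes had no Lpl UMI.

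Fam20c and Gas2l3, markers of the label that the rule did not use, were also higher. Fam20c, which encodes a kinase of the secretory pathway that phosphorylates secreted proteins, was at 96.1, 217, 205, 68.2 and 75.4 CPM in the selected cells of TAM1 to TAM5 and at 201, 69.0 and 18.2 CPM in those of Oil1, Oil2 and Oil5, against 3.65 to 7.52 CPM in other singlets. All 8 hashtags differed in this direction and the 2 sets of values did not overlap. However, the selected value of Oil5 rests on 1 UMI, and those of TAM5 and Oil2 on 3 UMIs each. The log2 fold was 4.41 ± 0.36 (SE; edgeR adjusted p = 1.6e-32, at most 4.5e-06 in the other settings). Gas2l3, a protein that links actin and microtubules, had a log2 fold of 3.55 ± 0.39 (edgeR adjusted p = 4.7e-18, at most 0.0060 in the other settings) and was higher in 7 of 8 hashtags, with 0 UMIs in the selected cells of Oil2. Fam20c was found in 34 of the 78 cells and Gas2l3 in 23. After cells were thinned to 3000 UMIs, which left out 628 shallower singlets (344 TAM, 284 oil), Fam20c was found in 29.9% of the 67 cells against 1.24% of 7198 other singlets, and Gas2l3 in 14.9% against 1.28%. Without thinning the shares for Fam20c were 47.8% and 1.96%.

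Among the genes that rose in every hashtag, Cd63 had the smallest p. Cd63 encodes a tetraspanin of late endosomes and lysosomes. It was at 1354, 2080, 753, 1137 and 1959 CPM in the selected cells of TAM1 to TAM5 and at 2470, 1703 and 1441 CPM in those of Oil1, Oil2 and Oil5, against 241 to 338 CPM in other singlets. The lowest selected value, that of TAM3, was above the highest of the other singlets. The mean was 1612 ± 553 CPM in selected cells and 293 ± 38.6 CPM in other singlets (SD, n = 8 hashtags), and the log2 fold 2.40 ± 0.14 (SE; edgeR adjusted p = 3.0e-60, at most 1.7e-06 in the other settings). Cd63 was present in 65 cells, none of its 862 UMIs was in the 11 cells with few microglial markers, and no cell held more than 4.99% of them.

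Signals to other cells were among the 12 genes as well. Csf1, a ligand of the receptor Csf1r on which microglia depend, was at 134, 238, 120, 136 and 754 CPM in the selected cells of TAM1 to TAM5 and at 442, 46.0 and 91.2 CPM in those of Oil1, Oil2 and Oil5, against a mean of 19.0 ± 4.97 CPM in other singlets (SD, n = 8 hashtags). TAM5 and Oil1 were the highest, and all selected values lay above those of the other singlets, with that of Oil2 resting on 2 UMIs. Its log2 fold was 3.47 ± 0.27 (SE; edgeR adjusted p = 6.0e-36, at most 8.6e-05 in the other settings). Cxcl16, a membrane-bound chemokine that also takes up oxidised lipoprotein, averaged 334 ± 252.1 CPM in selected cells and 44.2 ± 7.09 CPM in other singlets (SD, n = 8 hashtags; log2 fold 2.76 ± 0.21).

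**Figure D3:**
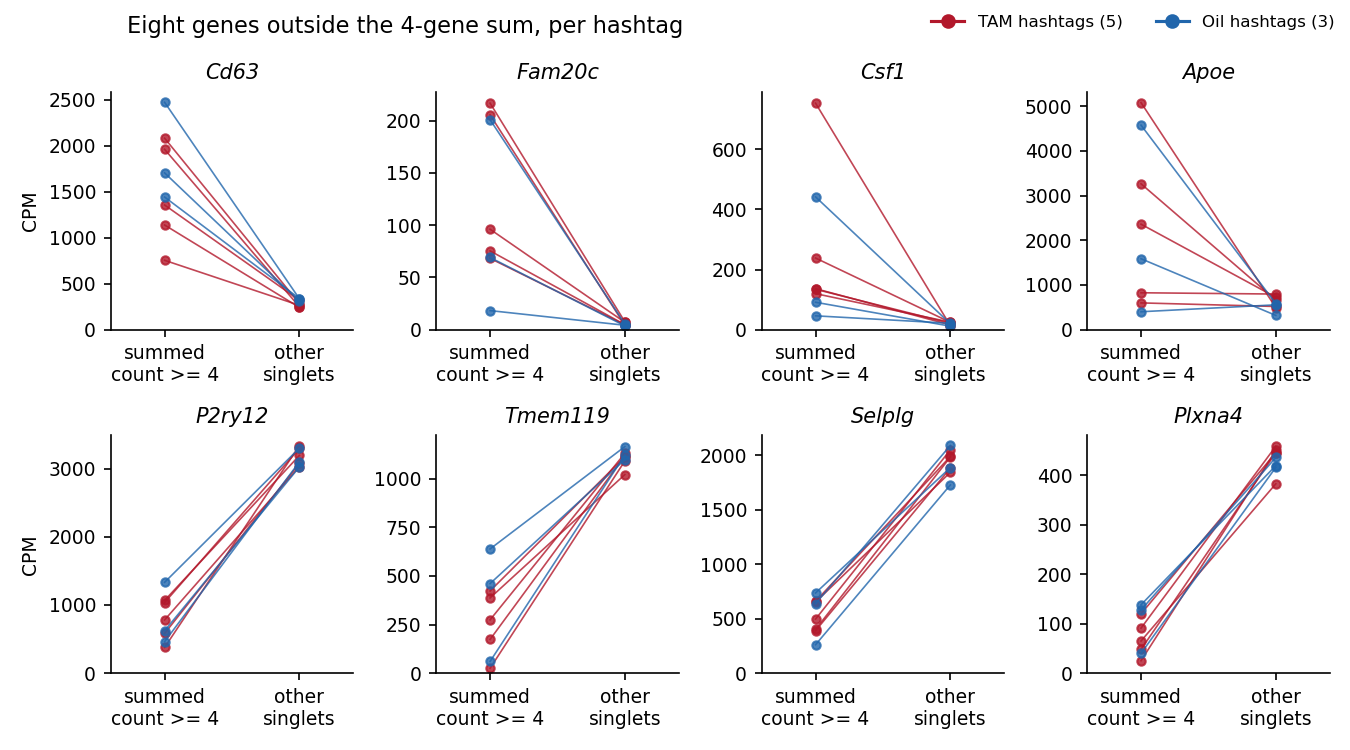
Each line joins the CPM of selected cells (left) and of other singlets (right) of 1 hashtag, red for TAM and blue for oil, for 4 genes with a positive log2 fold (top) and 4 with a negative one (bottom). Cd63, Fam20c and Csf1 are higher in all 8 hashtags and the 4 lower genes are lower in all 8, whereas Apoe is higher in 7 and lower in Oil5.

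The other genes of the 12 named as higher were of mixed function. Xylt1, which starts the sugar chains of proteoglycans, had a log2 fold of 3.41. Rai14, an actin-binding protein, had one of 4.53 in 22 cells (adjusted p = 0.274 in edgeR between the depth quartiles), and Fgr, a Src-family kinase of myeloid cells, one of 3.93. Ftl1, the ferritin light chain that stores iron, had one of 1.68, and March3, a ubiquitin ligase, one of 2.56. Olfr111, annotated as an olfactory receptor, averaged 267 ± 150 CPM in selected cells and 29.3 ± 4.98 CPM in other singlets (SD, n = 8 hashtags; log2 fold 3.04 ± 0.24). It belongs to a large family of similar genes, so its counts are uncertain. Lyz2, lysozyme, and Fxyd5, a regulator of the sodium pump, had much of their level in the 11 cells, which held 293 of 527 and 52 of 70 UMIs. Their log2 folds in the 67 cells were 1.06 for Lyz2 and 2.18 for Fxyd5, and in all selected cells 1.99 and 3.81. Fgr and Xylt1 also had UMIs in the 11 cells. In the 67 cells Fgr averaged 103 ± 51.4 CPM, against 8.07 ± 1.90 CPM in other singlets with at least 8 microglial markers. Xylt1 averaged 205 ± 120 CPM against 18.2 ± 6.31 CPM (SD, n = 7 hashtags for both).

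Of the promoters of these 12 genes, 9 were found in the RefSeq table, as were those of 3 of the 4 rule genes. The 250 bases before each start were searched on both strands for GAGGAAG, a core bound by PU.1, the transcription factor that myeloid cells require, and for CACGTG, the E-box core of the MiT family that controls lysosomal genes. The PU.1 letters occurred before 2 of the 9 genes, Cd63 and Fxyd5, before 0 of the 3 rule genes and before 12.0% of the 27025 genes in the table. The E-box letters occurred before 0 of the 9, 0 of the 3 and 6.86% of all. The counts are too small to describe the set. The windows that hold a match are shown because Cd63 leads the ranking, with the match in capitals (read as CTTCCTC on the strand shown). They lie in build GRCm38.p6, at chr10:128909095-128909344 on the + strand for Cd63, with the match starting at position -60 from the start, and at chr7:31042332-31042581 on the - strand for Fxyd5, with the match at -87.
Cd63: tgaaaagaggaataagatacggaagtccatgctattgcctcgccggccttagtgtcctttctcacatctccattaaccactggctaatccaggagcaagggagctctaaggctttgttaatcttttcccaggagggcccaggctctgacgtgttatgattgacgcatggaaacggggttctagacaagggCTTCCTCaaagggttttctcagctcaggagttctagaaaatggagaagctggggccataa
Fxyd5: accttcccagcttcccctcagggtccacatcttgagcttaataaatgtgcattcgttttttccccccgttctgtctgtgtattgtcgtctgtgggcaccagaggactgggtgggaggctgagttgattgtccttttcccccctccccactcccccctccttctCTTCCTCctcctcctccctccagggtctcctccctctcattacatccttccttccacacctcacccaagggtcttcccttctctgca

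Homeostatic genes fell together. All 23 genes of the homeostatic list were tested and all 23 were lower in selected cells, with a median log2 fold of -1.02 against -0.20 for all genes tested. With library-size scaling 20 of them passed and the median was -0.83. With the 67 cells 21 of 23 passed, and between the depth quartiles 12 of 23. P2ry12 was at 1066, 780, 582, 1035 and 377 CPM in the selected cells of TAM1 to TAM5 and at 462, 621 and 1331 CPM in those of Oil1, Oil2 and Oil5, against 3023 to 3336 CPM in other singlets. All 8 selected values lay below all values of the other singlets. Its log2 fold was -2.05 ± 0.14 (SE; edgeR adjusted p = 1.0e-42, at most 1.6e-05 in the other settings).

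Tmem119 averaged 305 ± 211 CPM in selected cells and 1107 ± 41.3 CPM in other singlets (SD, n = 8 hashtags; log2 fold -1.87 ± 0.17). TAM5 and Oil1 stood lowest, with 25.1 and 60.3 CPM in their selected cells. Selplg, the ligand of selectins, had a log2 fold of -1.88, Crybb1, a crystallin gene of mature microglia, one of -2.32 and Slc2a5, a fructose transporter, one of -2.33. Small changes in the list were those of Tgfbr1, a receptor of TGF-beta, at -0.36, and Cst3, cystatin C, at -0.47. Tgfbr1 is only slightly beyond the median of all genes. After thinning, P2ry12 was found in 76.1% of the 67 cells against 99.5% of other singlets.

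The other genes named as lower were Plxna4, a semaphorin receptor (log2 fold -2.43 ± 0.23), Agmo, an enzyme that cleaves ether lipids (-2.06), and Csmd3, a large membrane protein (-1.86). Pde4d, which degrades cyclic AMP, averaged 23.5 ± 22.4 CPM in selected cells and 249.1 ± 26.8 CPM in other singlets (SD, n = 8 hashtags; log2 fold -3.35 ± 0.32). Zfhx3, Ssh2, Tanc2, Elmo1 and Nav2 had log2 folds between -1.72 and -1.47. All of these were lower in 8 of 8 hashtags, and all were also lower in the 67 cells.

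The disease-associated list held 33 genes, 4 of which are the rule genes. Of the 24 others that passed the filter on low counts, 19 were higher, 0 lower and 5 did not pass, with a median log2 fold of 1.38. For the 67 cells 19 of 24 were higher again, with Spp1 tested there and Cybb not. Between the depth quartiles 11 of 22 were higher. With Csf1 and Cd63 these included Ctsb, cathepsin B (1.51 ± 0.13), and Axl, a receptor for dying cells (3.27). Cybb, the catalytic subunit of the phagocyte oxidase, had a log2 fold of 4.62, but 85 of its 123 UMIs were in the 11 cells and it was not tested in the 67. Trem2, the lipid receptor that this state is known to require, did not pass (log2 fold -0.21), and neither did its adaptor Tyrobp (0.21). The fold of Trem2 is near the median of all genes tested (-0.20), and the 11 cells held 0 of its 841 UMIs. Per total UMIs, Trem2 was at 1886 CPM in the 67 cells and 1665 CPM in the other singlets.

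Apoe, the main lipid carrier of the brain, varied between hashtags. It was at 826, 2362, 599, 5083 and 3266 CPM in the selected cells of TAM1 to TAM5 and at 4579, 1588 and 401 CPM in those of Oil1, Oil2 and Oil5, against 319 to 797 CPM in other singlets. Selected cells were higher in 7 of 8 hashtags, by little in TAM1 and TAM3, and lower in Oil5. In the 67 cells it was higher in 5 of 7 hashtags, with 490 CPM in selected cells of TAM1 against 764 CPM in its other singlets, and the log2 fold was 1.41 ± 0.16. Over all selected cells the log2 fold was 1.68 ± 0.15 (SE; edgeR adjusted p = 8.5e-28), but with edgeR's robust estimate of the spread the adjusted p was 0.0811 and the call was lost. Of the 1855 Apoe UMIs in all selected cells, 531 (28.6%) were in 1 cell. No hashtag of the comparison had more than 447 in its selected cells, so this cell belonged to Oil3 or Oil4. Both were left out of the comparison, so the cell does not enter the log2 folds or the values by hashtag given here.

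In the list of developmental and proliferative-region microglia, 9 of 17 genes passed the filter, 8 were higher and Slc23a2 (log2 fold 0.57) did not pass. Among the 67 cells 9 of 10 were higher, and between the depth quartiles 6 of 9. Besides Fam20c, Gas2l3 and Cd63 they included Plaur, the urokinase receptor (3.38 ± 0.32), Anxa5, annexin 5 (2.54 ± 0.37), and Hmox1, which breaks down haem (1.72). Spp1, osteopontin, the gene best known for this state, was too sparse for the comparison of all selected cells and is named because of its value. It had 121 UMIs in 12 of the 78 cells, of which 90 were in 1 cell of TAM2. Among the 67 cells its log2 fold was 6.83 ± 0.43 and it was higher in 7 of 7 hashtags, but outside TAM2 its selected values were 13.6 to 112 CPM against 2046 CPM in TAM2. Gpnmb, another marker of that state, had 0 UMIs in the 78 cells and also in all other singlets.

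Lysosomal genes shifted in part. Of 24 genes 22 were tested, 13 were higher, 2 lower and 7 did not pass, with a median of 0.50. Restricted to the 67 cells, 12 were higher and 1 lower, and between the depth quartiles 5 of 22 were higher and 0 lower. Higher were Ctsb, Ctsz, cathepsin Z (1.21), Atp6v0c, a subunit of the proton pump (1.45), and Cd68, a lysosomal membrane protein (1.02). The protease Lgmn was among the lower ones (-0.65). Lipid genes moved both ways, with 9 higher and 4 lower of 16 tested out of 26. For the 67 cells 9 were higher and 3 lower, and between the depth quartiles 1 of 14 was higher and 1 lower. Plin2, Lipa and Soat1 lost their calls there, with 3 hashtags, at log2 folds of 2.11, 1.15 and 0.79. The list median was 0.58 there and 0.63 over all selected cells. In the latter, Plin2, which coats lipid droplets, had a log2 fold of 1.83 ± 0.32, and Lipa, the acid lipase, one of 1.14. Soat1, which makes cholesterol esters, had one of 1.08. Lpcat2, which remodels phospholipids, was lower (-1.18 ± 0.15), and so was Acsl1, which activates fatty acids (-1.04).

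Of the glycolytic genes 14 of 15 were tested, 10 were higher and 0 lower, with a median of 1.0. For the 67 cells 9 of 14 were higher. Between the depth quartiles, with 3 hashtags, 2 of 14 were called and the median was 0.86. Pgk1, Ldha and Gapdh lost their calls there (edgeR adjusted p = 0.0709, 0.269 and 0.747), at log2 folds of 1.61, 1.03 and 0.37. The 10 included Pgk1 (1.95), Pkm (1.77), Tpi1 (1.64) and Ldha (1.47), enzymes of the pathway and of lactate formation, while the hexokinases Hk1 (-0.27) and Hk2 (-0.46) did not pass. Of the cytokine list 13 of 20 were tested, 9 were higher and 0 lower. There were 8 of 13 higher in the 67 cells, and between the depth quartiles 6 were higher and 1 lower. Ccl9 (1.94) and Ccl6 (1.72), chemokines for myeloid cells, were higher in 8 of 8 hashtags. Ccl3 had a log2 fold of 2.24, with 33.6% of its 119 UMIs in 1 cell and an adjusted p of 0.129 under the robust estimate of edgeR's spread. Il1a (-0.65) and Ccl2 (-0.15) did not pass.

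Genes of antigen presentation by MHC class II depended on the 11 cells. In all selected cells 4 of 6 tested genes of 7 were higher, with log2 folds of 3.95 for Cd74, 4.38 for H2-Aa, 4.01 for H2-Ab1 and 4.08 for H2-Eb1. The 11 cells held 646 of 749 UMIs of Cd74 and 279 of 290 of H2-Aa. In the 67 cells 1 of 4 tested genes was higher, Cd74, with a log2 fold of 2.21 ± 0.27. With the robust estimate 2 of 6 were called in all selected cells. Of 16 interferon genes 8 were tested and 3 were higher, Ifitm3, Bst2 and Ifi27l2a. Of 161 UMIs of Ifitm3 140 were in the 11 cells, and in the 67 cells its log2 fold was 1.72 ± 0.47, with 3 of 7 hashtags higher. Of 43 UMIs of Ifi27l2a 22 were in the 11 cells, and it did not pass in the 67 cells (log2 fold 0.69, edgeR adjusted p = 0.350), in DESeq2, in limma voom or between the depth quartiles. Between the depth quartiles 0 of 4 interferon genes were called. Bst2, a restriction factor, had a log2 fold of 1.09 in all selected cells and 1.22 in the 67.

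Of the cell cycle list 9 of 20 genes were tested and 5 were higher, among them Pcna, the sliding clamp of DNA replication (1.23 ± 0.28), and Mki67 (0.50) did not pass. Only Pcna and Tubb5 of 11 tested passed in the 67 cells. With a summed count of at least 6, 0 of 11 passed (Pcna: edgeR adjusted p = 0.254), between the depth quartiles 0 of 5 (Pcna: 0.770), and limma voom called 2 of 9. Of 16 tested immediate early genes, out of 20, 6 were lower and 2 higher, with a median of -0.15 that became 0.03 without TMM and 0.01 in DESeq2. For the 67 cells 5 of 13 were lower and 1 higher, and between the depth quartiles 1 of 15 each way. Lower were the transcription factor Jun (-1.17), Btg2, which restrains growth (-1.12), and Rhob, a small GTPase (-1.08). The higher ones were the transcription factors Klf2 (1.62) and Klf4 (2.33), of which 68 of 78 and 31 of 32 UMIs were in the 11 cells, and Klf2 did not pass in the 67 cells, where its log2 fold was -1.08.

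**Figure D4:**
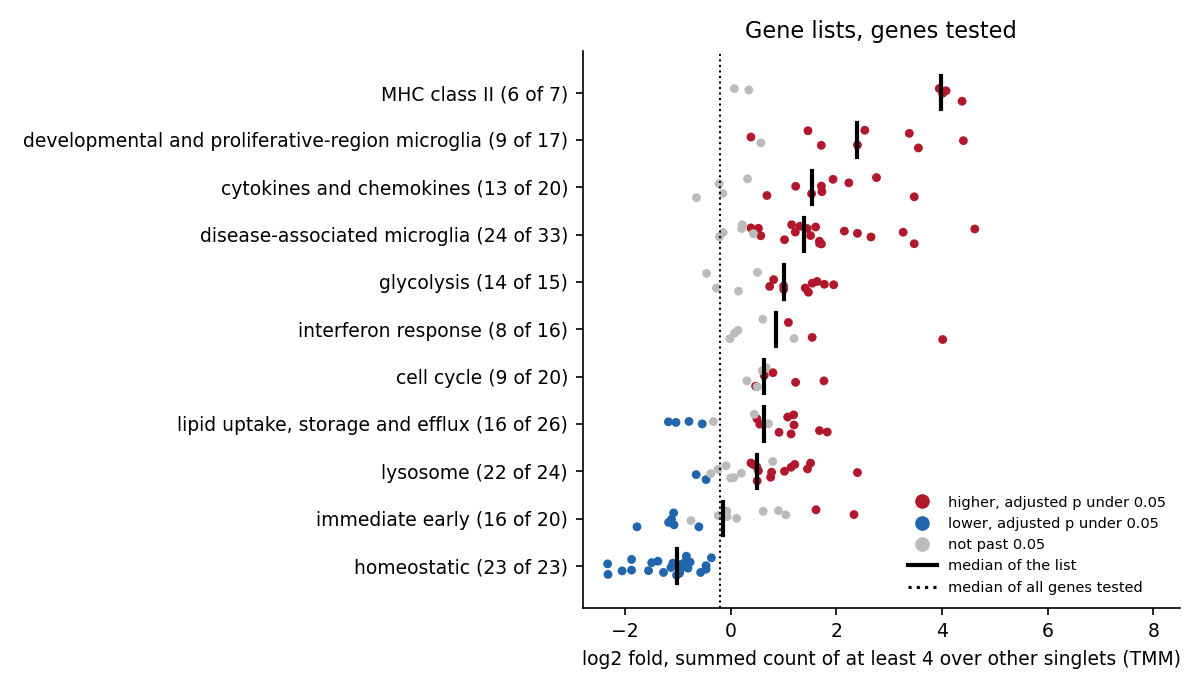
Points are the genes of each list that could be tested, at their log2 fold of selected cells over other singlets (TMM scaling), red when higher and blue when lower at an adjusted p under 0.05, grey otherwise, with the list median as a black bar and the median of all genes (-0.20) dotted. The homeostatic list is entirely blue, with a median of -1.02, the disease-associated list has its median at 1.38, and the high median of MHC class II rests on 4 genes.

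Cells with a sum of 1 to 3, most of which had a single UMI, lay between those at 0 and the selected cells in several genes. Among singlets with at least 8 microglial markers, Fam20c was at 3.25 CPM in the 7135 cells with a sum of 0, 18.1 CPM in the 532 with 1 to 3, 39.7 CPM in the 26 with 4 or 5 and 182 CPM in the 41 with 6 or more. Cd63 was at 248.5, 614, 1537 and 2192 CPM in the same order, and Csf1 at 14.1, 60.4, 181 and 300 CPM. P2ry12 was at 3045, 2401, 1446 and 760 CPM. Each of these 4 genes is ordered over the 4 bins, with no tie. Cx3cr1, the fractalkine receptor, ran in the same direction as P2ry12 over a smaller range, at 2128, 1834, 1730 and 1246 CPM, and Trem2 showed no such order, at 1662, 1839, 2036 and 1788 CPM. Cells were pooled over hashtags here, and cells with a higher sum also tend to be deeper, so this is a description.

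**Figure D5:**
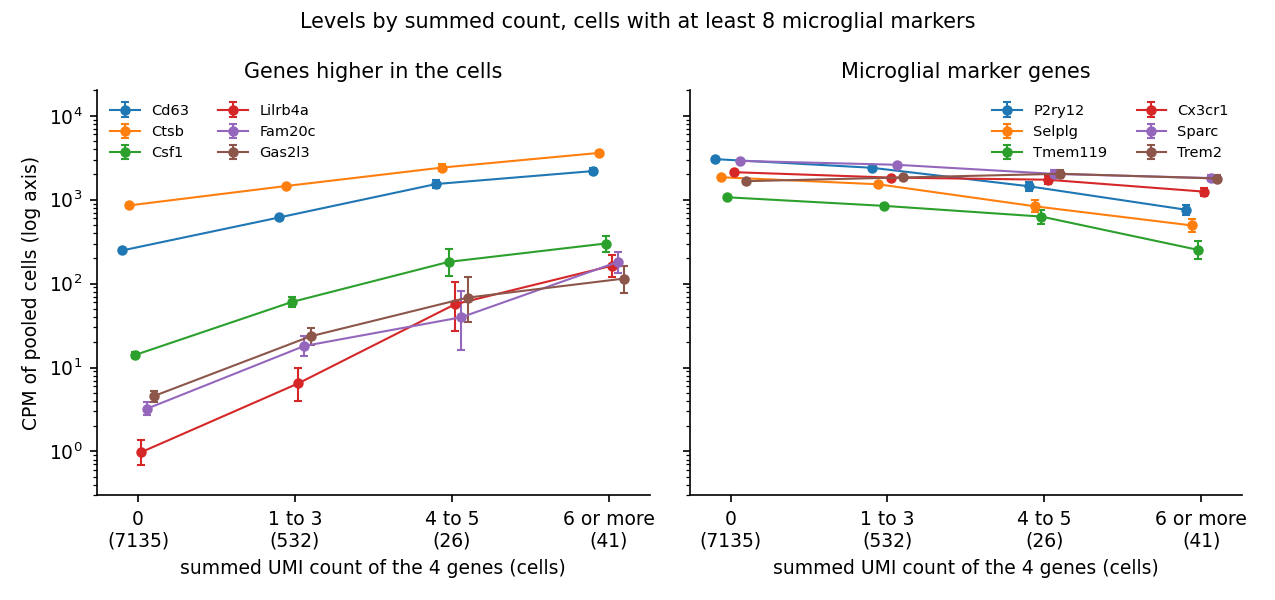
Points give the CPM of pooled cells (log axis) in bins of the summed UMI count of the 4 rule genes, with the number of cells in brackets and bars for exact 95% Poisson intervals, which cover counting error only. Cd63, Ctsb, Csf1, Lilrb4a, Fam20c and Gas2l3 (left) are higher in each next bin and P2ry12, Selplg and Tmem119 (right) lower, while Trem2 stays between 1662 and 2036 CPM.

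Within the 67 cells, those led by Lpl and those led by Lgals3 had different levels of several genes. The 33 cells led by Lpl came from 10 hashtags and the 19 led by Lgals3 from 9. Cd63 was at 1481 CPM (exact 95% Poisson interval 1321 to 1655) in the cells led by Lpl and 2953 CPM (2663 to 3266) in those led by Lgals3, and Ctsb at 2792 and 4226 CPM. Csf1 was at 227 CPM (167 to 301) and 453 CPM (344 to 586) in the same order. Apoe was at 6061 CPM in the cells led by Lpl, where 1 cell held 531 of 1281 UMIs, and 2562 CPM in those led by Lgals3. Axl, with 19 UMIs in 11 cells led by Lpl and 4 in 3 cells led by Lgals3, and Vcam1, with 17 UMIs in 7 cells and 2 in 2 cells, were found in more of the cells led by Lpl. Fam20c, at 137 CPM (91.9 to 197) and 164 CPM (102 to 251), had overlapping intervals. The 7 cells led by Cst7 held 1 UMI of Fam20c and 0 of Gas2l3, Spp1 and Lilrb4a, and 4 of the 7 came from Oil5. These intervals cover counting error only, and the differences between kinds of cell were not tested over hashtags.

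Treatment within the selected cells was compared over the same 8 hashtags, TAM against oil. Of 1057 genes tested, 0 passed an adjusted p of 0.05 (0%) in edgeR, and 57 had an unadjusted p under 0.05. DESeq2 and limma voom also called 0. The smallest adjusted p was 0.864, for Pcbp2, which binds RNA (log2 fold 1.25 ± 0.39). The median standard error of a log2 fold was 0.35, and even the log2 fold of 1.25 of Pcbp2 was not called. Differences of several standard errors can thus be missed with 5 TAM and 3 oil hashtags. Fam20c had a log2 fold of 0.36 ± 0.70 and P2ry12 one of -0.12 ± 0.37. The difference between selected cells and other singlets was not shown to depend on treatment either: of 9588 genes 0 passed (0%) in edgeR's test of the interaction, 419 had an unadjusted p under 0.05, and DESeq2 and limma voom called 0.

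The rule genes themselves are given by treatment without a test, because the threshold fixes their range. Lpl was at 1450, 932, 1113, 512 and 1583 CPM in the selected cells of TAM1 to TAM5, and at 402, 230 and 492 CPM in those of Oil1, Oil2 and Oil5. All 5 TAM values were above the 3 oil values. Much of this lay in single cells, with the top cell holding 83 of 151 Lpl UMIs in TAM1 and 29 of 43 in TAM2. In TAM3, TAM4 and TAM5 it held 36 of 65, 16 of 45 and 44 of 63. In Oil1, Oil2 and Oil5 it held 10 of 20, 5 of 10 and 11 of 27. Oil3 and Oil4, with fewer than 5 selected cells, had 4 Lpl UMIs each and are left out. Lgals3 was at 384, 390, 616, 216 and 301 CPM in TAM1 to TAM5 and at 1366, 506 and 128 CPM in Oil1, Oil2 and Oil5, so the highest and the lowest value were both in oil. By leading gene, 23 of 49 TAM cells and 10 of 29 oil cells were led by Lpl, and 16 of 49 TAM cells and 12 of 29 oil cells by Lgals3.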

How the data were processed

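Gene and hashtag libraries of 1 droplet pool were prepared with the 3′ v3.1 chemistry of 10x Genomics, per the labels' protocols. The authors deposited raw UMI counts, which per the file headers come from Cell Ranger 7.0.0. The submitters' processing notes name the genome build mm10. The treatment of each hashtag is the one in its deposited name. HTODemux (Seurat 5.3.0, positive quantile 0.99) gave 8055 singlets of 9975 barcodes, of which 7903 passed filters (500 or more genes, 1000 or more UMIs, mitochondrial UMIs up to 10%). Barcodes with several hashtags (1737) were left out, and no other doublet caller was used. Singlets of a hashtag held 3026788 to 4862885 UMIs in all.

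Raw counts were summed per hashtag and cell set and tested with edgeR 4.0.16 (TMM, filterByExpr, quasi-likelihood, Benjamini-Hochberg at 0.05), checked on simulated data. Standard errors are the log2 fold over the square root of F. CPM per hashtag are after TMM, except Lpl with the rule without it, immediate early sums and the flagged values. Those exceptions, and CPM of pooled cells or marker lists, are per total UMIs. Shares used exact permutation tests. Hashtag numbers in the names do not mark pairs by any label. Named genes were the 6 markers, in each direction 12 genes by lowest p, with a log2 fold of at least 1 and 1 sign in every hashtag, without clones, ribosomal and mitochondrial genes, and up to 5 per list. Further genes were named after their values were seen. The cells, lists and tests were chosen with earlier results of these data known. Alternatives were other normalizations, filters, thresholds, cell sets and tools (DESeq2 1.42.0, limma 3.58.1). One gene of the lists is not reported by name here.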

Additional observations from a re-analysis of the deposited data

Results flagged for a closer look

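Groups of 5 hashtags were checked for a hashtag far from the others in 20 instances, where chance flags about 1 in 20, and 3 stood out. Lpl over all singlets was 44.3 CPM in TAM1, against 19.9 to 21.9 CPM in the other TAM hashtags, and 1 cell held 83 of its 192 Lpl UMIs, of which 151 were in the 15 selected cells. Lgals3 over all singlets was 20.4 CPM in Oil1, against 4.03 to 8.52 CPM in the other oil hashtags, with 68 of 73 UMIs in 8 selected cells and 38 in 1 of them. Cst7 in unselected singlets was 4.57 CPM in TAM4, against 6.57 to 7.28 CPM in the other TAM hashtags.

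Barcodes with several hashtags, which no comparison used, also held cells that meet the rule: 23 of 1716 (1.34%, exact 95% binomial interval 0.851% to 2.004%) had a summed count of at least 4. Singlets had 0.987%. Barcodes without a hashtag had 0 of 141, which allows up to 2.13%. Intervals and limits cover counting error only.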

How the results depend on the processing

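The TAM minus oil share kept its direction and missed the threshold in every alternative tried, at 0.281 to 0.587 percentage points. Hashtag numbers are names that no label makes pairs, and a replicate block on them left 0.459 (exact permutation p = 0.125). With a summed count of at least 6, selected cells had 1906.6 more UMIs and 449.1 more genes in 5 hashtags, too few for the exact test to pass. Genes called against other singlets, 1677 at first, numbered 1072 with that threshold and 332 between the depth quartiles, which keep fewer cells and hashtags, 1404 to 1559 without 1 hashtag, 1990 with no replicate block and 1280 to 1818 otherwise. Between the depth quartiles every list had fewer calls, and of 57 named calls 41 held and 0 reversed. List medians there were -1.15 for homeostatic, 1.12 for disease-associated, 2.22 for developmental, 1.75 for cytokine and 0.47 for lysosomal genes. Those of cell cycle and MHC class II genes were lower than over all selected cells, at 0.31 and -0.55. Klf2 reversed, to a log2 fold of -1.08 with at least 8 microglial markers and -0.99 with the threshold of 6. Of 64 named calls 64 held with library-size scaling, 59 each with a robust edgeR spread and limma voom, and 54 of 60 with at least 8 markers. TAM against oil within selected cells gave 4 genes with no filter on low counts and 2 with the threshold of 6, and 0 without any 1 hashtag. The interaction gave 3 genes over all 10 hashtags, and 0 to 2 without 1 hashtag (1 without TAM3, 2 without Oil2). The cause of these changes was not tested. All 10 hashtags, the robust spread and voom were chosen after seeing the data. Between 3 and 15 selected cells a hashtag limit all of this.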
